A study of Mus musculus with 2 samples.

Results

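Mouse hepatoblasts, the fetal liver progenitors that give rise to hepatocytes and bile duct cells, were transduced with a retrovirus carrying Srf or, as the control, EGFP (a fluorescent protein), and their total RNA was hybridised to Affymetrix whole-transcript arrays. There was 1 array for each of the 2 groups. Both cultures came from fetal liver and, per the labels, grew on type IV collagen in medium with serum, dexamethasone, HGF and EGF, among other additions. Hepatoblasts of the study are, per its methods, a clonal expansion that carries a Nanog-GFP reporter. The methods also state that infected cells were selected with puromycin, except where reprogramming efficiency was examined. The sources used here do not give the time between transduction and RNA extraction. The 35 genes examined were those of the epithelial-mesenchymal transition (EMT), of elastic fibres and their crosslinking, and of hepatic stellate cells, with collagens left out. They were found by symbol, among probe sets whose annotation lists exactly 1 gene. A probe set of this kind was listed for 32 of the 35 genes, out of 22180 genes with a value. Of these, 30 were bright enough on either array to be compared (at or above the 20th percentile of its probe sets), out of 19261 genes compared. Postn and Hgf lay under that limit, and Fbn1, Zeb2 and Loxl2 were not compared, since the annotation used here gave no such probe set for them. Values are on the log2 scale of the deposited table, and each difference is Srf minus EGFP. A single array per condition allows no test across samples, so no p-value is given, and the array number limits how precise any value can be.

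As background, EMT is the process in which epithelial cells lose their junctions and take on the traits of mesenchymal cells, under repressors such as the Snail, Zeb and Twist factors, which bind short E-box motifs in DNA. Stellate cells are the retinoid-storing pericytes of the liver sinusoid, which turn into matrix-producing myofibroblasts after injury. Lysyl oxidases are copper enzymes that oxidise lysines of collagen and elastin so that these fibres can be crosslinked outside the cell.

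The largest differences among these genes were lower values on the Srf array. Loxl1 and Loxl3, which encode lysyl oxidases, were 2.25-fold and 1.78-fold lower, Pdgfrb, the receptor for platelet-derived growth factor that marks stellate cells and pericytes, was 2.11-fold lower, and Twist1, a basic helix-loop-helix EMT factor, was 1.60-fold lower. Snai2 (Slug), a zinc-finger EMT repressor, was the 1 gene at least 1.5-fold higher, at 1.62-fold. The other 25 genes compared stayed within 1.5-fold, which is the threshold that the study applied to these cells. Thus 4 of 30 genes (13.3%) were lower and 1 of 30 (3.33%) was higher, beside 1.27% lower and 1.55% higher over all 19261 genes compared (2.82% in either direction). At 2-fold, 2 genes were lower (Loxl1 and Pdgfrb) and 0 were higher, beside 0.317% and 0.343% of all genes. The genes were listed with earlier results of these data known, so these shares describe the list and are not evidence about it. The median difference over the 30 genes was -0.09, beside -0.01 over all genes compared, whose differences had an SD of 0.24. Probe sets of the same gene, where several were bright (960 genes), varied around their gene's mean difference with an SD of 0.19. In bulk RNA, fewer cells of a type and less RNA per cell cannot be told apart.

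**Figure D1:**
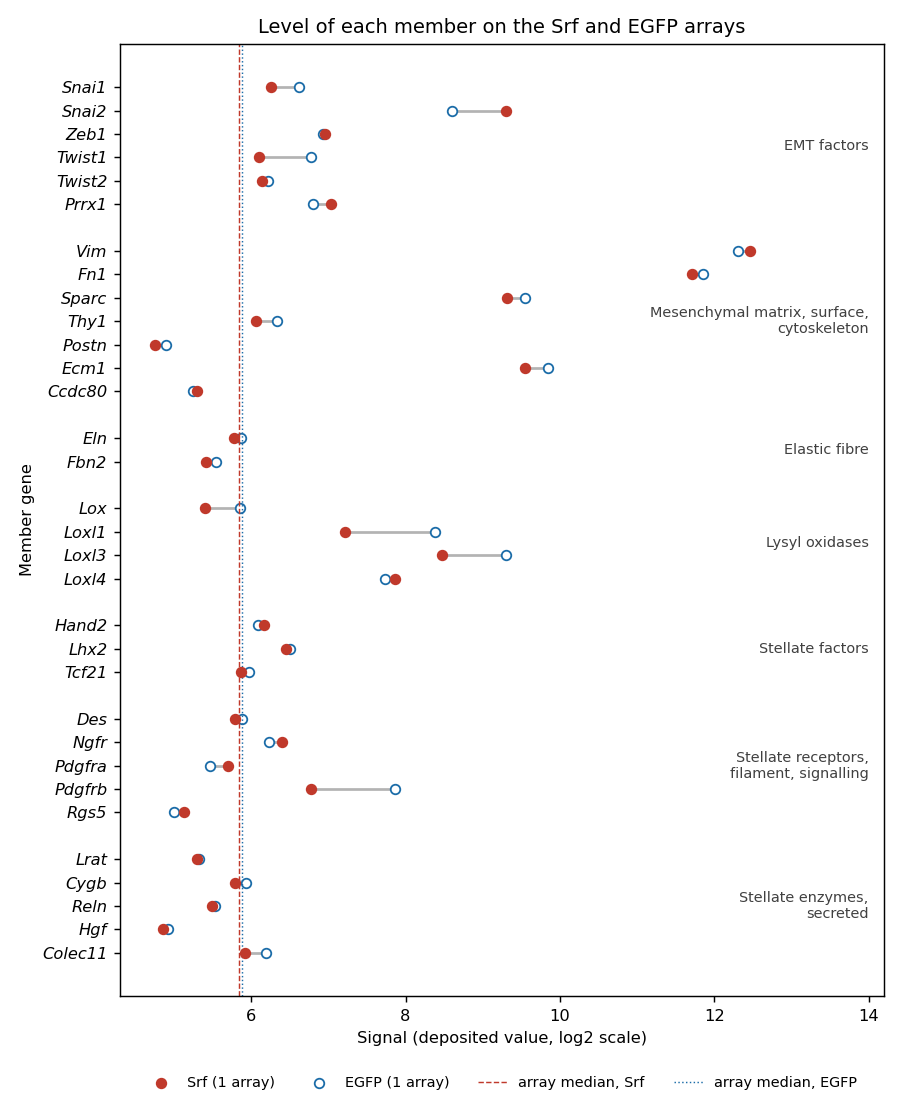
Level of each of the 32 genes with a value, in log2 signal (horizontal axis), on the Srf array (filled circles) and the EGFP array (open circles), with 1 array each, grouped by role. Dashed and dotted lines mark the array medians of 5.84 (Srf) and 5.88 (EGFP). The widest gaps are those of Loxl1, Pdgfrb, Loxl3, Snai2 and Twist1.

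The transcription factors of EMT differed in both directions. Snai2 was at 9.30 on the Srf array and 8.61 on the EGFP array, a log2 difference of 0.69, and stood above the 75th percentile of probe sets on both arrays. Its difference ranked 184 from the highest among the 19261 genes compared. Its relative Snai1 (Snail), which binds the same E-box, was at 6.26 on the Srf array and 6.62 on the EGFP array, a log2 difference of -0.35 that stayed within 1.5-fold. The Snail paralogs therefore differed in opposite directions, with only that of Snai2 past 1.5-fold. Twist1 was at 6.10 on the Srf array and 6.78 on the EGFP array (log2 difference -0.68), not far above the array medians. Its paralog Twist2 was at 6.14 with Srf and 6.22 with EGFP, a difference of -0.08. Zeb1, a zinc-finger homeobox repressor of E-cadherin, was at 6.95 on the Srf array and 6.93 on the EGFP array, a difference of 0.03. Prrx1, a homeobox factor of limb and craniofacial mesenchyme, was at 7.04 with Srf and 6.80 with EGFP, a difference of 0.24. Across the 6 factors compared, the median difference was -0.02, and it was 0.01 both with each array centred on its median and with lowess centring.

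**Figure D2:**
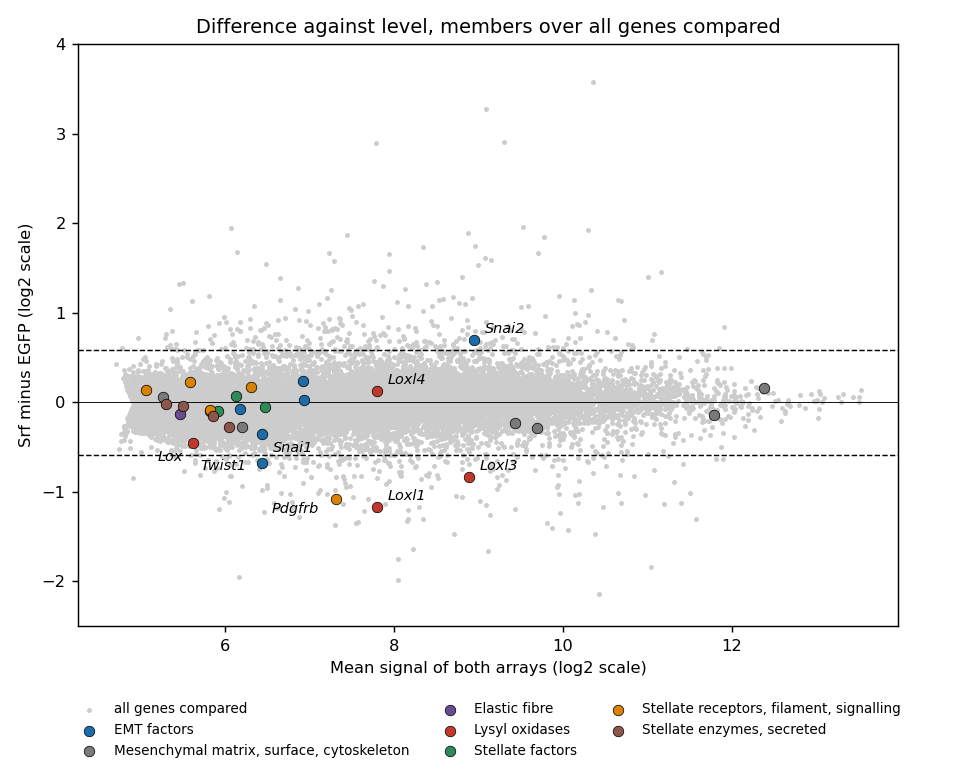
Difference between the Srf and EGFP arrays (vertical axis, log2) against the mean signal of both arrays (horizontal axis, log2) for the 19261 genes compared (grey) and the 30 genes examined (coloured by role), with dashed lines at 1.5-fold. Loxl1, Pdgfrb, Loxl3 and Twist1 lie below the lower line and Snai2 above the upper one, and the dim genes at the left lie close to 0.

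Of the members past 1.5-fold, Twist1 was the 1 with a promoter window in the RefSeq table used here (build GRCm38.p6), which matched 22 of the 35 genes. Its 250 bases before the start site (chr12:33957421-33957670, plus strand) are shown beside those of Snai1 (chr2:167537945-167538194, plus strand), in lower case with an E-box of the form CAGGTG or CACCTG, the site that Snail and Zeb factors bind, in capitals. These letters are each other's reverse complement, so both strands were searched.
Twist1: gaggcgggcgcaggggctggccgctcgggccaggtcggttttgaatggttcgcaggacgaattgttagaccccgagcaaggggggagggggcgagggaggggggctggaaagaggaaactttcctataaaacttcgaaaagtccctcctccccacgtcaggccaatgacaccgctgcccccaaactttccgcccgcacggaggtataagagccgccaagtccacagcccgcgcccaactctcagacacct
Snai1: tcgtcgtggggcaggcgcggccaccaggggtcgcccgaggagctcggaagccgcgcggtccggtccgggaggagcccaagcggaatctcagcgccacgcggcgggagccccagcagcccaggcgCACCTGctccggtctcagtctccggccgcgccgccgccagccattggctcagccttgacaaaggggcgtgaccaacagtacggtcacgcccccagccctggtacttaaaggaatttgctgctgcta
The Snai1 window held 1 such E-box, 126 bases before the start, and the Twist1 window held none. Lrat was the other member with one, so 2 of the members' 28 windows (7.14%) held this motif, beside 17.2% of all 32851 windows. The CArG box that Srf binds, searched in its strict form, which reads the same way on both strands, was in 0 of the 28 windows, beside 1.47% of all windows. With up to 1 letter off, it was in 3 of the 28 (10.7%), those of Lrat, Ecm1 and Colec11, beside 18.6% of all windows. None of these 3 genes was past 1.5-fold, but of the members past it only Twist1 had a window to search. A match describes the letters in a window and not binding, and sites farther from the start were not searched.

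The general mesenchymal genes differed little, whether bright or dim. Vim, the intermediate filament protein of mesenchymal cells, was at 12.46 on the Srf array and 12.30 on the EGFP array (log2 difference 0.16), with probe set differences of 0.11 and 0.20. Fn1, which encodes fibronectin, was at 11.71 with Srf and 11.85 with EGFP (difference -0.14). Both were far above the 75th percentiles of 7.59 on the Srf array and 7.57 on the EGFP array, so these hepatoblasts carried strong Vim and Fn1 signals with either transgene. Sparc, a collagen-binding matrix protein, was at 9.32 on the Srf array and 9.55 on the EGFP array (difference -0.23). Ecm1, a secreted matrix glycoprotein, was at 9.55 with Srf and 9.84 with EGFP (difference -0.29), and Thy1, a surface glycoprotein of fibroblasts, was at 6.07 with Srf and 6.34 with EGFP (difference -0.27). Postn, which encodes periostin of activated fibroblasts, was under the limit for comparison on both arrays, at 4.75 with Srf and 4.90 with EGFP. Ccdc80, a secreted matrix-associated protein, was also dim, with a mean of 5.30 on the Srf array and 5.24 on the EGFP array. Of the 6 genes compared in this group, 0 passed 1.5-fold, beside 2.82% of all genes compared in either direction. Of the 6 differences, 4 lay below 0 and the median was -0.19, beside -0.01 over all genes.

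Among the crosslinking enzymes, the bright members split. Loxl1, which in mice is required to maintain elastic fibres, was at 7.21 on the Srf array and 8.38 on the EGFP array, a log2 difference of -1.17. This difference ranked 31 from the lowest among all genes compared. Loxl3, a lysyl oxidase with scavenger receptor domains, was at 8.47 with Srf and 9.30 with EGFP (difference -0.84). Loxl4, which has the same domain layout, was at 7.86 on the Srf array and 7.74 on the EGFP array, a difference of 0.12. Lox, the founding member, lay below the median on both arrays, at 5.40 with Srf and 5.86 with EGFP (difference -0.45). Thus 3 of the 4 enzymes compared were lower on the Srf array, 2 of them past 1.5-fold, beside 1.27% lower by 1.5-fold over all genes compared. The median difference of these 4 enzymes was -0.64, beside -0.01 over all genes. Loxl2 was measured only by probe sets shared with a predicted gene and is not counted here. Their differences were in the other direction, at 0.56 and 0.16. With probe sets of several symbols kept, the median of the lysyl oxidases was -0.45. The fibre proteins themselves were dim. Eln, which encodes elastin, was at 5.77 on the Srf array and 5.87 on the EGFP array (difference -0.10), and Fbn2, a fibrillin of the microfibrils on which elastin is laid down, was at 5.41 with Srf and 5.54 with EGFP (difference -0.13).

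Of the stellate cell groups, the 5 receptor, filament and signalling genes, the 3 transcription factors and the 5 enzymes and secreted proteins, Pdgfrb was the only gene compared that differed by 1.5-fold. Across all genes compared, 2.82% did so in either direction. In the first and the last of these groups 3 of 5 genes lay below the median on both arrays, and 0 of the 3 transcription factors did. Pdgfrb was at 6.78 on the Srf array and 7.86 on the EGFP array, a log2 difference of -1.08, which ranked 45 from the lowest. Its relative Pdgfra, a receptor of fibroblasts, was dim at 5.70 with Srf and 5.47 with EGFP (difference 0.23). Ngfr, the low-affinity nerve growth factor receptor, was at 6.39 on the Srf array and 6.23 on the EGFP array (difference 0.17). Des, the muscle and stellate cell intermediate filament, was at 5.79 with Srf and 5.88 with EGFP (difference -0.09). Rgs5, a regulator of G-protein signalling found in pericytes, had a mean of 5.14 on the Srf array and 5.00 on the EGFP array (difference 0.14).

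The transcription factors Hand2, Lhx2 and Tcf21, which are expressed in stellate cells, had log2 differences of 0.07, -0.05 and -0.10. Hand2, which is also a factor of heart development, was at 6.17 with Srf and 6.09 with EGFP, and Tcf21, a factor of mesenchyme, was at 5.87 with Srf and 5.97 with EGFP. Lhx2, whose loss in mice activates stellate cells, was at 6.45 on the Srf array and 6.51 on the EGFP array. Lrat, the enzyme that esterifies retinol for storage, was at 5.29 with Srf and 5.32 with EGFP (difference -0.02), below the median of both arrays. Reln, a secreted glycoprotein best known from neuronal migration, was at 5.49 on the Srf array and 5.53 on the EGFP array (difference -0.04). Cygb, a globin of stellate cells, was at 5.79 with Srf and 5.94 with EGFP (difference -0.15), and Colec11, a soluble lectin of the complement system, was at 5.91 with Srf and 6.19 with EGFP (difference -0.28). Hgf, the growth factor for which Met is the receptor, was under the limit for comparison, at 4.86 with Srf and 4.93 with EGFP. Taking the 12 stellate cell markers as 1 list, Ecm1 included, their mean level was 6.20 on the Srf array and 6.36 on the EGFP array. Ecm1 raised this mean, at 9.55 with Srf and 9.84 with EGFP, and the next highest was Pdgfrb, at 6.78 and 7.86. Pdgfrb was the 1 of 11 compared that passed 1.5-fold, beside 2.82% of all genes compared in either direction.

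Dim genes differed little over the whole array. Of the 30 genes compared, 9 lay below the median on both arrays, and their differences ran from -0.45 (Lox) to 0.23 (Pdgfra) with 0 past 1.5-fold. Among all genes that dim, the SD of the differences was 0.15, and 0.0332% were lower and 0.183% higher by 1.5-fold (0.216% in either direction). The other 21 included all 5 genes past 1.5-fold. Of these 21, 4 (19.0%) were lower and 1 (4.76%) was higher. Among the 13243 genes at or above the median on either array, 1.83% were lower and 2.17% higher, and the SD of the differences was 0.28. A gene at or above the median on either array was not counted as dim, so the split itself limits large differences among dim genes. Lrat, Reln, Eln and Fbn2 were among the dim genes, where larger differences were seldom measured for any transcript.

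Genes that work with these members were taken from 8 lists of 102 genes in all, of which 94 were compared. By the 1.5-fold threshold, 9 (9.57%) were higher and 4 (4.26%) lower, beside 1.55% higher and 1.27% lower over all genes compared. These lists too were chosen with earlier results known, so their counts are a description. Their median difference was 0.03. Among 15 assembly partners of elastic fibres, Fbln2, a fibulin of basement membranes and elastic fibres, was at 11.19 on the Srf array and 10.27 on the EGFP array (1.89-fold higher), and Ltbp2, a microfibril-associated protein, was at 7.09 with Srf and 6.17 with EGFP (1.89-fold higher). None of the 15 was lower by 1.5-fold, and their median was -0.04. The value of Ltbp2 rests on 1 probe set and was 0.57, under 1.5-fold, once those that list several symbols were included. Among 11 enzymes and helpers of collagen crosslinking and propeptide removal, Tll1, a tolloid-like protease of the family that removes procollagen propeptides and also cleaves pro-lysyl oxidase, was at 8.07 on the Srf array and 6.40 on the EGFP array (3.17-fold higher). The lysyl hydroxylases Plod1 and Plod2 both had a difference of 0.01 and Bmp1, the founding protease of that family, 0.06, so crosslinking genes did not all differ in the same direction as Loxl1 and Loxl3.

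**Figure D3:**
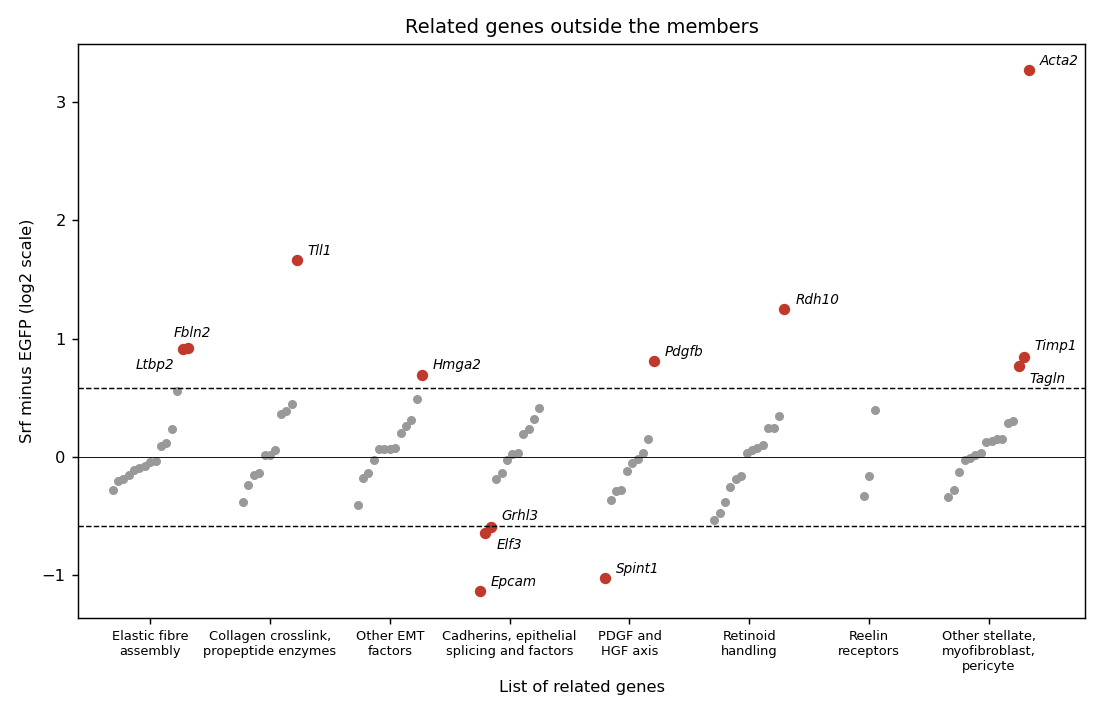
Difference between the Srf and EGFP arrays (vertical axis, log2) for the 94 related genes compared, in 8 lists, each point 1 gene, sorted within its list, with dashed lines at 1.5-fold. Named red points are past 1.5-fold, from Epcam at -1.14 to Acta2 at 3.27.

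Of the partners of PDGF and HGF signalling, a ligand was higher and a protease inhibitor was lower on the Srf array. Pdgfb, which encodes a ligand of the receptor made from Pdgfrb, was at 9.21 on the Srf array and 8.40 on the EGFP array (1.75-fold higher), while Pdgfa, Pdgfc and Pdgfd had differences of 0.15, -0.12 and 0.03. Met, the HGF receptor, was bright and level, at 10.14 with Srf and 10.16 with EGFP. Spint1, an inhibitor of the proteases that activate HGF, was at 6.70 on the Srf array and 7.73 on the EGFP array (2.03-fold lower), and the related inhibitor Spint2 had a difference of -0.36. Of these 10 genes, 1 was higher and 1 was lower by 1.5-fold, beside 1.55% higher and 1.27% lower over all genes compared.

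In the list of cadherins and of epithelial splicing and transcription factors, 3 of 12 genes were lower by 1.5-fold and none of the 12 was higher, beside 1.27% lower and 1.55% higher over all genes compared. Of the 12 differences, 6 lay above 0 and 6 below, with a median of -0.0002. Epcam, an epithelial adhesion protein, was at 7.33 on the Srf array and 8.47 on the EGFP array (2.20-fold lower). Elf3, an epithelial Ets factor, was at 7.49 with Srf and 8.13 with EGFP (1.56-fold lower). Grhl3, a grainyhead factor, was at 7.71 with Srf and 8.30 with EGFP (1.51-fold lower, but under 1.5-fold with each array centred on its median). The related factors Grhl1 and Grhl2 had differences in the other direction, of 0.19 and 0.24, both within 1.5-fold. Cdh1, which encodes E-cadherin, the classic target of Snail and Zeb repressors, had a mean difference of 0.03 over its probe sets. Cdh2, which encodes N-cadherin, had a difference of 0.41, within 1.5-fold. Esrp1 and Esrp2, splicing factors of epithelia, had differences of -0.03 and 0.32. Cdh11, the other cadherin of the list, was at 6.01 with Srf and 5.99 with EGFP (difference 0.03). None of the cadherin genes listed was thus past 1.5-fold between these 2 arrays.

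The promoter table held 6 windows for only 5 of the 12 genes of this list, so the others could not be searched. Of these 6 windows, 3 held the E-box described for Snai1, those of Epcam, Elf3 and Grhl3, beside 17.2% of all windows. They are shown because they are the 3 genes of the list that were lower, with the E-box in capitals, from Epcam (all 250 bases, chr17:87635729-87635978, plus strand), Elf3 (chr1:135258583-135258642, minus strand) and Grhl3 (chr4:135573633-135573692, minus strand).
Epcam: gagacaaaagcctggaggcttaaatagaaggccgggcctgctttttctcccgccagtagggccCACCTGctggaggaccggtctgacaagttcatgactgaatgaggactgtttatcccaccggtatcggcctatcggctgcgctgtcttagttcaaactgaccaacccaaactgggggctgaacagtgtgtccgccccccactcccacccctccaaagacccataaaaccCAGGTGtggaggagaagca
Elf3: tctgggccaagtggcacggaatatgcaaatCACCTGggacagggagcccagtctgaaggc
Grhl3: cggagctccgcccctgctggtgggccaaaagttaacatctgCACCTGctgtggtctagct
In the Epcam window the E-boxes lay 187 and 19 bases before the start, in that of Elf3 140 bases and in that of Grhl3 19 bases. The genes were singled out after their differences were seen, and the motif is common, so the matches are given as letters only.

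Of the 14 genes of retinoid handling, Rdh10, which oxidises retinol to retinal, was at 10.95 on the Srf array and 9.71 on the EGFP array (2.38-fold higher), and 0 were lower by 1.5-fold. Rbp4, the retinol carrier that hepatocytes secrete, had a difference of -0.53 and Stra6, its receptor, -0.19. The reelin receptors Vldlr and Lrp8 had differences of 0.40 and -0.33 and their adaptor Dab1 -0.16. Among 13 further EMT factors, Hmga2, an architectural chromatin protein of fetal cells, was at 11.40 on the Srf array and 10.71 on the EGFP array (1.62-fold higher), and 0 were lower by 1.5-fold. The lowest of them, Foxc2, a forkhead factor, had a difference of -0.41. Over all genes compared, 1.55% were higher and 1.27% lower by 1.5-fold.

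A further list held genes of activated stellate cells, myofibroblasts and pericytes. Of 16 compared, 3 passed 1.5-fold upward and 0 downward, beside 1.55% upward and 1.27% downward over all genes compared. The median difference of the list was 0.13, beside -0.01 over all genes compared. Acta2, which encodes smooth muscle actin, was at 10.73 on the Srf array and 7.46 on the EGFP array (9.66-fold higher), a difference second only to that of Srf itself, which was at 12.15 with Srf and 8.57 with EGFP, on a probe set that does not tell the introduced from the endogenous transcript. Timp1, an inhibitor of matrix metalloproteinases, was at 9.30 on the Srf array and 8.45 on the EGFP array (1.80-fold higher), and Tagln, an actin-binding protein of smooth muscle, was at 7.01 with Srf and 6.25 with EGFP (1.70-fold higher). Acta2 and Tagln are known Srf targets. Others of the list, such as Dcn (0.14), Nes (0.15), Cspg4 (-0.01) and Gfap (-0.13), stayed within 1.5-fold. A stretch of the Acta2 promoter (chr19:34255384-34255483, minus strand) is shown because Acta2 differed most among the related genes, with its CArG-like letters, each 1 letter off the strict CArG box, in capitals.
Acta2: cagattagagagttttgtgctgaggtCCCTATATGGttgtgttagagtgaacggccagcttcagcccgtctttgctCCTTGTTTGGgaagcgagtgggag
They lay 84 and 34 bases before the start in the table. Like the 28 windows of the members, that of Acta2 held no strict CArG box. The strict box was in 2 of the 96 windows of related genes (2.08%), those of Klf8 and Pdgfc, beside 1.47% of all windows. Klf8, of the further EMT factors, and Pdgfc had differences of 0.31 and -0.12, both within 1.5-fold. Letters up to 1 off the strict box were in 21 of the 96 windows (21.9%), beside 18.6% of all windows.

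Marker lists were used to see which cells the arrays could hold. The 10 hepatoblast markers with a value had a mean level of 9.40 on the Srf array and 9.48 on the EGFP array, and 0 lay below the array median on both arrays. On the Srf array their levels ran from 6.04 (Dlk1, at 6.18 on the EGFP array) to 12.42 (Krt8), so Dlk1 was not far above the median. Past 1.5-fold were 2 of these 10, in opposite directions, with Afp, the fetal liver protein alpha-fetoprotein, at 7.60 with Srf and 6.76 with EGFP (1.78-fold higher) and Epcam 2.20-fold lower. Of the 7 endothelial markers, 6 lay below the median on both arrays, all but Cdh5, as did 5 of the 6 blood cell markers with a value, all but Cd68. Of the 12 stellate cell markers, Lrat, Reln, Des and Hgf lay below the median on both arrays. The 9 mesothelial markers had a mean level of 8.04 on the Srf array and 7.65 on the EGFP array. Of their differences, 7 lay above 0 and 2 below, with a median of 0.45. Upk1b was at 10.50 with Srf and 8.55 with EGFP (3.89-fold higher), Krt14 was 1.77-fold higher and Alcam 1.55-fold lower. Msln was bright on both arrays, at 11.93 with Srf and 11.46 with EGFP, within 1.5-fold. The 5 portal fibroblast markers with a value had means of 6.86 with Srf and 6.82 with EGFP, and Fbln2 was the 1 past 1.5-fold. Fbln2 also raised these means, at 11.19 with Srf and 10.27 with EGFP, and the next highest was Thy1, at 6.07 and 6.34. Over all genes compared, 2.82% were past 1.5-fold in either direction. Mesothelial and mesenchymal cells share genes with the list examined, and the part of such cells in the differences given here was not tested.

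**Figure D4:**
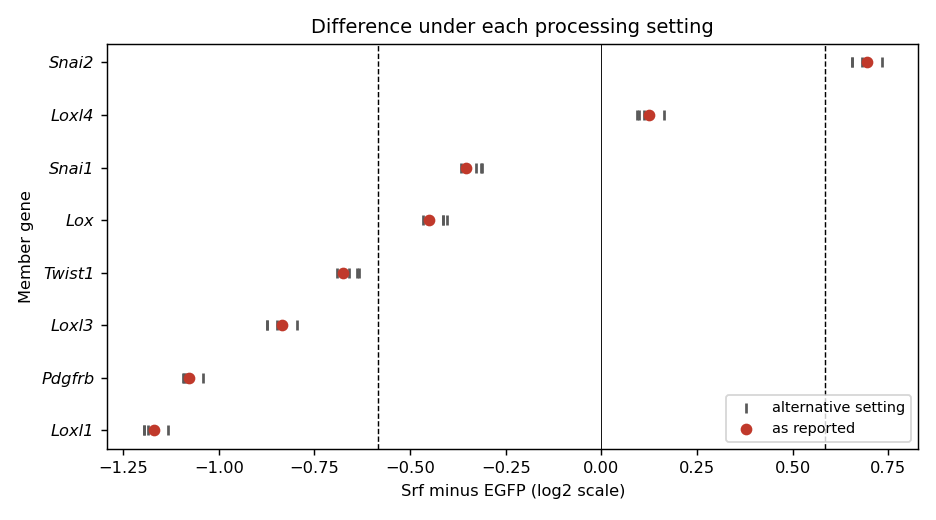
Difference between the Srf and EGFP arrays (horizontal axis, log2) for 8 of the genes, as reported (red) and under the alternative processing settings (grey ticks), with dashed lines at 1.5-fold. Loxl1, Pdgfrb, Loxl3, Twist1 and Snai2 stay past 1.5-fold at every tick, and Lox, Snai1 and Loxl4 stay within it.

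The 5 genes past 1.5-fold kept that call under each of 8 alternative scalings, filters and choices of probe sets. Across these, Loxl1 ranged from -1.20 to -1.13, Pdgfrb from -1.09 to -1.04, Loxl3 from -0.88 to -0.80, Twist1 from -0.69 to -0.63 and Snai2 from 0.66 to 0.73. Each of the 5 rests on 1 probe set, and these alternatives start from the same 2 arrays, so they do not stand in for replicate cultures.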

How the data were processed

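Total RNA of 2 hepatoblast cultures was hybridised to 1 Affymetrix mouse whole-transcript gene array each. The authors deposited 1 value per probe set. The methods name GeneSpring, removal of low signals and percentile shifts, without saying for which arrays, and the sources used here do not say how probe sets were summarised. The deposited values were read as log2 signals. This base was inferred from their range, from 4.28 to 13.63, so every fold rests on it. No column was left out.

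Probe sets were named from the platform annotation, which can be old. Of 34351, 23521 listed 1 symbol, 1820 several and 9010 none, and only those with 1 symbol were used. All 32 genes examined that had a value carried the same symbol in RefSeq (GRCm38.p6) by Entrez identifier. Probe sets of a gene were averaged. A gene was compared if it was at or above the 20th percentile on either array, and counted as higher or lower at 1.5-fold. No p-value can be given with 1 array per group. Every gene of the list was named, with Srf, Acta2 and, of the related lists, the genes past 1.5-fold. Plod1, Plod2, Bmp1, the Pdgf ligands, Met, Spint2, the cadherins, Esrp1, Esrp2, Grhl1, Grhl2, Rbp4, Stra6, the reelin genes, Foxc2, Klf8, Dcn, Nes, Cspg4 and Gfap were added after their values were seen. The members and lists were chosen with earlier results of these data known.

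Alternatives were lowess centring (span 0.3), quantile normalization, a shift of both arrays to their medians or to a common 75th percentile, no filter, a filter at the median, the brightest probe set, probe sets with several symbols and a 2-fold threshold. The counting was tested on simulated data. Python 3.11.15, pandas 2.3.3 and statsmodels 0.14.6 were used.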

Additional observations from a re-analysis of the deposited data

How the results depend on the processing

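The counts of 4 genes lower and 1 higher among the 30 compared were the same under every scaling, filter and choice of probe sets tried. With a 2-fold threshold instead, 2 genes were lower (Loxl1 and Pdgfrb) and 0 were higher, by construction of a stricter threshold. The median over the members ranged from -0.14 with a filter at the array median to -0.04 with lowess centring. No gene past 1.5-fold changed sign. The median of the EMT factors, -0.02 as reported, ranged from -0.07 to 0.01. Among related genes, keeping probe sets with several symbols gave 1 elastic fibre partner and 2 further EMT factors at least 1.5-fold higher, against 2 and 1 as reported. With each array centred on its median, 3 elastic fibre partners were higher, Efemp1 being added, and at 2-fold 0 were. A filter at the array median moved the median of the stellate receptor, filament and signalling genes to -0.45, against 0.14 as reported, and that of the reelin genes to 0.03, against -0.16, because it removed the dim genes. No paired analysis was possible because each group had 1 array and the labels give no replicate numbers. Signal over background limits the dim genes, and no alternative stands in for the spread between cultures.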

Other observations

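Some genes were measured only by probe sets whose annotation lists a second gene, so their signals cannot be assigned to 1 gene, and they were singled out after their values were seen. The probe sets listed for Loxl2, a lysyl oxidase, and the predicted gene Gm21451 were at 9.28 and 7.75 on the Srf array, against 8.72 and 7.59 on the EGFP array, with differences of 0.56 and 0.16, both within 1.5-fold. Those listed for Zeb2, an EMT repressor, with Zeb2os and Mir5129 were at 5.09 and 6.34 on the Srf array and 5.20 and 6.37 on the EGFP array, with differences of -0.11 and -0.03. The probe set listed for Fosl1, a Fos family factor that has been linked to EMT, and Ccdc85b was at 10.47 on the Srf array and 9.51 on the EGFP array, a difference of 0.96.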
